A study of Oryza sativa with 39 samples.

Results

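Leaf transcriptomes of the rice line KMD2, obtained by genetic engineering (GE), were compared with those of CJ03, a line bred by conventional crossing. The comparison took all libraries that carry these line names, 6 of the 39 libraries and 2 of the 13 lines of the series. KMD2 is 1 homozygous event that carries a synthetic cry1Ab gene under the maize ubiquitin promoter, introduced with Agrobacterium into the variety XS11, and KMD1 is a separate event with the same gene. CJ03 carries no cry1Ab and was bred from a cross of XS11 with another variety, as were the lines JH1 and T202. Both lines belong to the Geng/Japonica (GJ) subspecies, share XS11 in their ancestry, and were grown together in a greenhouse without an applied treatment. Leaves were taken at tillering from plants aged 5 weeks. Each line had 3 replicates, each pooled from the middle leaf section of 5 plants, so a replicate is the mean of several plants. The study asked how far leaf expression differs between lines made by the 2 breeding methods, and with 1 event beside 1 cross-bred line the method and the line cannot be told apart.

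The gene cry1Ab comes from the soil bacterium Bacillus thuringiensis and encodes a crystal protein that kills the larvae of moths, among them the stem borers of rice. The maize ubiquitin promoter is active in most tissues of cereals. An inbred line selected from a cross carries stretches of chromosome from either parent, whereas a transformed line passes through tissue culture and keeps the genome of the variety that was transformed, apart from the insertion and changes gained on the way.

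Expression was given as FPKM, the number of fragments on a locus scaled for its length and for the sequencing depth of the library. The reads recovered from these values lay between 5337381 and 6361384 per library in KMD2 and between 5118007 and 5614183 per library in CJ03. These totals are far below the clean reads that the study lists for its libraries, a gap that was not resolved, so read numbers, and with them the limits and counting intervals given in reads, could be off by a common factor. Reference loci, identifiers in which the first pair of digits is the chromosome and the last digits give the order along it, received 80.9%, 78.9% and 82.7% of the reads of KMD2 replicates 1, 2 and 3, against 80.0%, 83.1% and 84.5% for CJ03. The 2 lines overlapped in this share. Of 37830 reference loci in the files, 19774 had a read in at least 1 of the 6 libraries, and 11974 were tested because they reached 0.5 FPKM in 3 or more libraries. The sources used here give no gene names for these loci, so they are described by identifier, level and position, and neither the leaf label nor pathways could be checked against named genes. In pooled leaf tissue, fewer cells of a type and less RNA per cell cannot be told apart.

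The 2 lines differed at 716 of the 11974 tested reference loci, 5.98%, by a fold change of at least 2 with an adjusted p below 0.05 (limma on log2(FPKM + 1), Benjamini-Hochberg over 21383 identifiers of all kinds, of which 1440, 6.73%, were called). Of these, 275 loci (2.3% of those tested) were higher in KMD2 and 441 loci (3.68%) were lower in KMD2. The 3 KMD2 libraries and the 3 CJ03 libraries did not overlap at any of the 716 called loci, while 29.1% of all tested loci did not overlap. The calls came from the same libraries, so this lack of overlap was nearly fixed by the test and is no further support. The median log2 fold change, KMD2 minus CJ03, was 1.72 among the higher and -1.56 among the lower loci, beside -0.003 over all tested loci. A log2 fold change of at least 4 was reached by 35 loci higher in KMD2, and one of at most -4 by 28 loci lower in KMD2. All fold changes on the log2(FPKM + 1) scale understate the change of low loci.

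**Figure D1:**
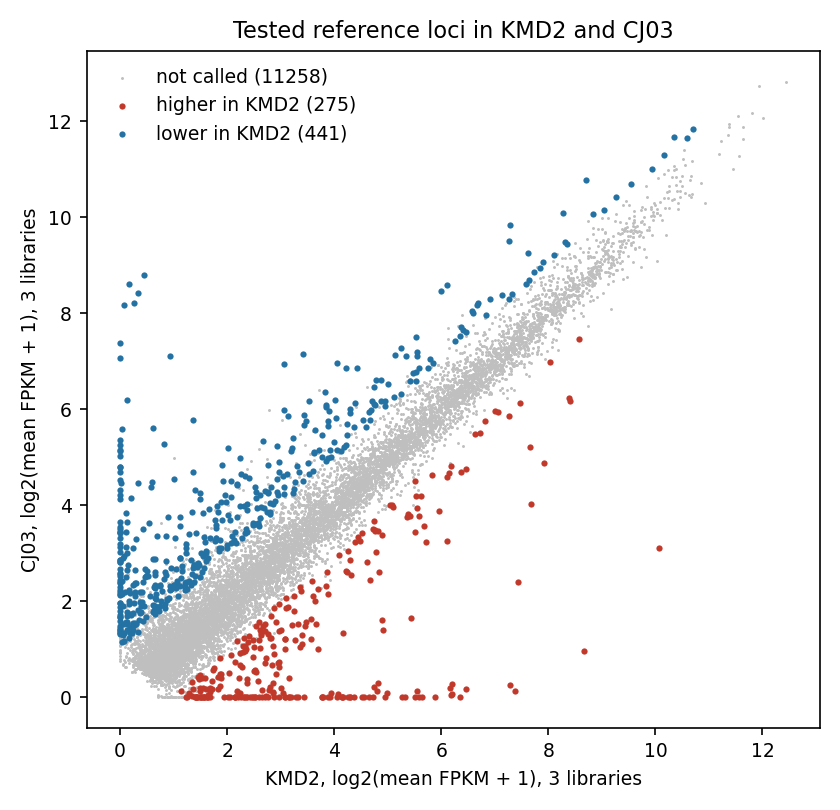
Mean expression of the 11974 tested reference loci in KMD2 (horizontal) and CJ03 (vertical), each as log2(mean FPKM + 1) over 3 libraries, with 1 point per locus. The 275 loci higher in KMD2 (red) and the 441 lower in KMD2 (blue) lie on both sides of the diagonal, and many sit on an axis, where 1 line is at or near 0.

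The number of calls fell whichever library was left out, a fit that also has fewer libraries to test with. It was 470, 447 and 464 without KMD2 replicate 1, 2 and 3, and 665, 461 and 582 without CJ03 replicate 1, 2 and 3. The direction of the calls moved with how libraries were scaled. When FPKM were set over plain read totals, 331 of 682 called loci (48.5%) were higher in KMD2, against 38.4% as deposited, and with voom on the recovered reads 50.0% were, with the median of the tested loci shifted to 0.112.

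At many called loci 1 line gave almost no reads. With at least 10 reads in each library of a line taken as read, and at most 3 reads in each library as silent, 119 tested loci (0.994%) were read in KMD2 and silent in CJ03, and 87 (0.727%) were read in CJ03 and silent in KMD2. No read at all fell in any library of the silent line at 71 of the 119 loci and at 45 of the 87 loci. Of the 119 loci 107 were called, and of the 87 loci 85 were, beside 5.98% of all tested loci. The limits were applied to the same libraries as the test, so a high share of calls was nearly fixed by the choice. Silent loci were not confined to weak expression: the mean of the line that was read went up to 166 FPKM for the loci read in KMD2 (median 5.57) and up to 446 FPKM for those read in CJ03 (median 6.01). These definitions limit the level only to 3 reads per library, and do not show that a transcript is absent.

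Among called loci with a mean of at least 5 FPKM in the higher line, the 10 with the largest increase in KMD2 had means of 70.9 to 1065 FPKM in KMD2 and 0 to 7.60 FPKM in CJ03. OS11G0471100 had 333, 367 and 514 FPKM in KMD2, against 0.478, 1.76 and 0.561 FPKM in CJ03, a ratio of means of 435 and a log2 fold change of 7.75 ± 0.29 (SE, n = 3 each). The gap was far wider than the spread within either line. XS11 stood with KMD2 at this locus (381, 450 and 409 FPKM), as did KMD1, JH1 and T202, so CJ03 was the single GJ line at which it was low.

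OS02G0310200 was the most abundant of these loci, with 1016, 951 and 1228 FPKM in KMD2, against 3.69, 5.91 and 13.2 FPKM in CJ03, a ratio of means of 140 with a log2 fold change of 7.10 ± 0.38 (SE, n = 3 each). CJ03 still gave 106 reads here over its 3 libraries, so the locus was low in CJ03 rather than silent. T202 had 0.199, 0 and 0 FPKM, whereas XS11 had 1102, 993 and 1025 FPKM. T202 was thus below CJ03, and the 3 libraries each of XS11, KMD1 and JH1 were between 948 and 1375 FPKM, near those of KMD2.

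The pattern at 2 further loci of this group differed in that the parent XS11 was on the side of CJ03. OS04G0372400 had 92.7, 70.7 and 78.7 FPKM in KMD2, while all CJ03 and all XS11 libraries were at 0, which makes the level in KMD2 at least 224-fold that of 3 reads per CJ03 library. KMD1 had 90.7 to 106 FPKM and T202 had 74.4 to 80.4 FPKM, and in JH1 replicate 2 alone gave reads (9.32 FPKM). OS03G0115800 had 125, 199 and 172 FPKM in KMD2, against 0, 0 and 0.276 FPKM in CJ03, where 2 reads were found, a ratio of means of 1800 with a 95% counting interval of 542 to 16200. Of the other GJ lines KMD1 was high (211, 149 and 54.9 FPKM), and XS11, JH1 and T202 had at most 0.454 FPKM in any library.

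OS04G0651700, at 166, 143 and 155 FPKM in KMD2 and 0, 0.264 and 0.295 FPKM in CJ03, was silent in JH1 and T202 as well but had 208 to 222 FPKM in XS11. OS01G0539400 (mean of 72.1 ± 2.93 FPKM in KMD2, SD, n = 3) and OS01G0820800 (72.1 ± 1.18 FPKM) had 1 read each over the 3 CJ03 libraries and were expressed in all other GJ lines. The rest of the 10 were OS12G0281966, OS11G0237700 and OS01G0965201, with log2 fold changes of 5.95 to 6.30. Adjusted p-values of the 10 loci lay between 1.24e-06 and 2.07e-05 (limma, Benjamini-Hochberg), and all 10 were called under each of 16 alternative settings. These settings reuse the same libraries, and the one without a minimum fold change keeps every call by construction. Counts of settings therefore describe dependence on the processing and are no independent support.

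The 10 loci with the largest decrease had means of 0 to 0.904 FPKM in KMD2 and 47.3 to 446 FPKM in CJ03. OS12G0222650 had 0, 0.688 and 0.395 FPKM in KMD2, against 354, 446 and 539 FPKM in CJ03, a ratio of means of 1230 in favour of CJ03 with a 95% counting interval of 433 to 6150. OS08G0476700 had 0, 0.363 and 0 FPKM in KMD2, against 266, 408 and 495 FPKM in CJ03 (log2 fold change -8.42 ± 0.26, SE, n = 3 each). Both loci were near 0 in XS11 and KMD1 and high in T202. JH1 had 344 to 645 FPKM of OS12G0222650, but its libraries were uneven for OS08G0476700 (0.903, 85.1 and 3.27 FPKM).

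Reads were absent from all KMD2 libraries at 2 of these loci. OS04G0604500 had 140, 190 and 167 FPKM in CJ03, which is at least 186-fold the level of 3 reads per KMD2 library, and OS01G0520180 had 75.7, 146 and 180 FPKM in CJ03, at least 139-fold that level. OS01G0520180 had no read in XS11, KMD1, JH1 or T202 either, and OS04G0604500 had at most 0.821 FPKM in any of their libraries. Among the GJ lines these 2 loci were therefore expressed in CJ03 alone.

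The other 6 loci of the group were also low in both XS11 and KMD1. OS12G0257450 (0.270 ± 0.468 FPKM in KMD2, 339 ± 79.3 FPKM in CJ03, SD, n = 3 each), OS03G0654800, OS11G0540600 and OS11G0644500 were shared by CJ03 with T202, OS09G0467700 with JH1, and OS11G0629400 with both. OS09G0467700 had 0, 0.174 and 0 FPKM in KMD2 and 212, 304 and 349 FPKM in CJ03, beside 326 to 430 FPKM in JH1 and 0 in all T202 libraries. Adjusted p-values of the 10 loci lay between 1.24e-06 and 8.7e-06 (limma, Benjamini-Hochberg), and all 10 were called under each of the 16 alternative settings.

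**Figure D2:**
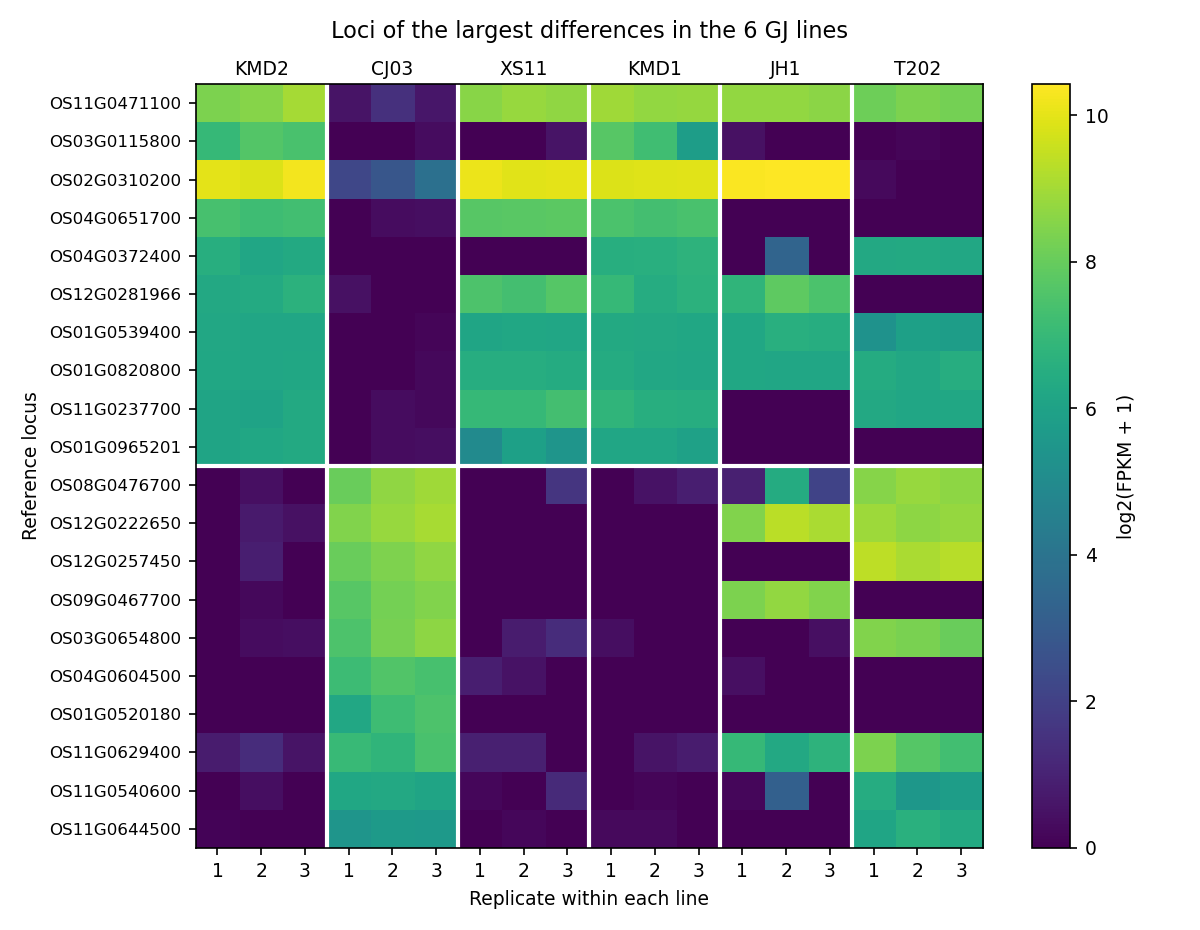
Expression as log2(FPKM + 1), by colour, of the 10 loci with the largest increase (upper rows) and the 10 with the largest decrease (lower rows) in KMD2 against CJ03, in the 3 libraries of each of 6 GJ lines. The lower loci are dark in XS11 and KMD1 throughout, while JH1 and T202 are bright at some loci of each group.

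The remaining GJ libraries took no part in the choice of these loci and show where each line stands. Of the 119 loci read in KMD2 and silent in CJ03, 66 were read and 34 silent in XS11, 79 were read and 12 silent in KMD1, 55 were read and 42 silent in JH1, and 42 were read and 54 silent in T202. Of the 87 loci read in CJ03 and silent in KMD2, 8 were read and 65 silent in XS11, 4 were read and 72 silent in KMD1, 18 were read and 48 silent in JH1, and 42 were read and 29 silent in T202. XS11 thus had the state of KMD2 more often than that of CJ03 in both groups, and T202 had the state of CJ03 more often than that of KMD2 in both. The rest of each group lay between the limits.

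By pattern across the GJ lines only, 27 of the 119 loci were read in XS11, KMD1, JH1 and T202 and so silent in CJ03 alone, and 12 more were silent in CJ03 and T202. A further 9 loci were read in KMD1 and silent in XS11, JH1 and T202, so among the GJ lines only KMD2 and KMD1 read them. Another 8 were silent in all 4 other GJ lines and so, among these lines, read in KMD2 alone. The states of these loci in the other lines of the series, GE lines included, were not counted by pattern. Of the 87 loci, 20 were read in T202 and silent in XS11, KMD1 and JH1, 19 were silent in all 4 other lines and so read in CJ03 alone, and 7 were read in JH1 and T202. One locus of the 87 was read in all 4 other lines and so silent in KMD2 alone. Outside the subspecies, 55 of the 119 loci and 38 of the 87 loci were read in at least 1 of the 7 Xian/Indica (XI) lines.

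**Figure D3:**
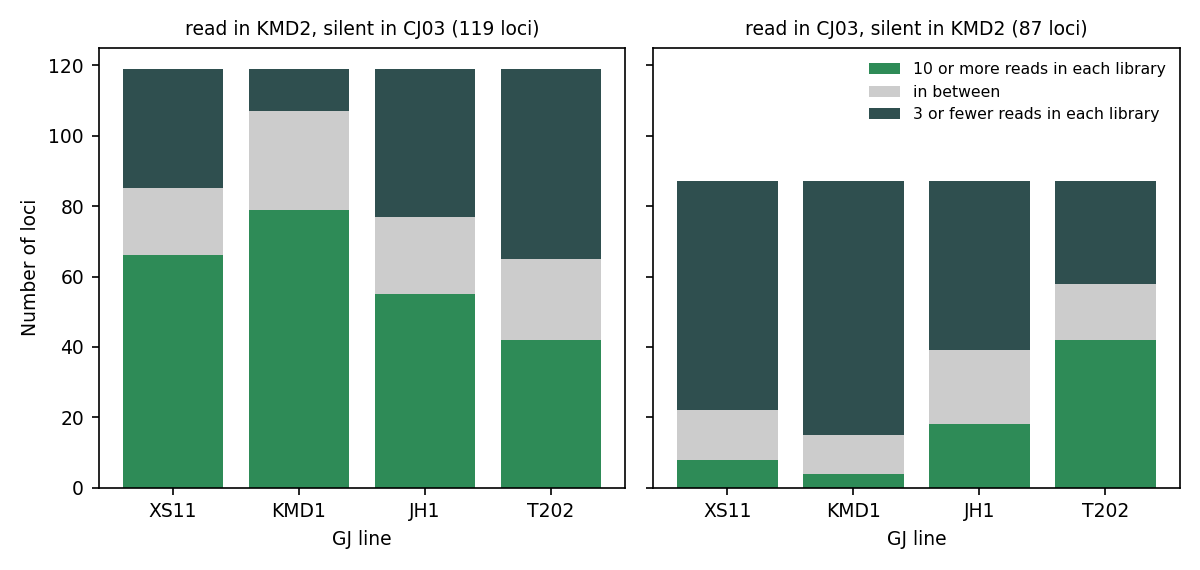
Number of loci (vertical) by state in 4 further GJ lines, for the 119 loci read in KMD2 and silent in CJ03 (left) and the 87 read in CJ03 and silent in KMD2 (right). Green marks loci with at least 10 reads in each of the line's 3 libraries, dark grey-green at most 3 reads in each, and light grey the rest. KMD1 has 72 of the 87 loci silent on the right, T202 29.

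Over all 716 called loci, the XS11 mean on the log2(FPKM + 1) scale was nearer to KMD2 at 376 loci and nearer to CJ03 at 340 (52.5% nearer to KMD2). By direction, XS11 was nearer to KMD2 at 171 of the 275 loci higher in KMD2 and at 205 of the 441 lower ones. XS11 lay within 1 log2 unit of KMD2 only at 294 loci, of CJ03 only at 248, of both at 128 and of neither at 46. Over the 16 alternative settings the share nearer to KMD2 ran from 48.7%, without a minimum fold change, to 61.3%, without KMD2 replicate 2, and it was 59.1% without the filter on low FPKM. KMD1 was nearer to KMD2 at 489 loci (68.3%) and JH1 at 395 (55.2%), whereas T202 was nearer to CJ03 at 485 (67.7%). These counts are descriptions without a test, since the loci share libraries.

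Over all 11974 tested loci, the 2 lines were not far apart beside other GJ pairs. The line means differed by at least 1 log2 unit at 8.98% of loci between KMD2 and CJ03, at 13.6% between KMD2 and XS11, at 11.5% between CJ03 and XS11, at 6.84% between KMD2 and KMD1, and at 10.1% between CJ03 and T202. The share was 7.97% for KMD2 and JH1 and 16.1% for KMD2 and T202. For CJ03 it was 9.32% with JH1 and 9.5% with KMD1. These pairs share libraries and their order was not tested. The loci were filtered on the levels of KMD2 and CJ03 alone. The make-up of the libraries also differed by line. Reference loci received 84.7% to 86.4% of the reads in XS11 and 85.6% to 87.9% in T202. The range was 81.4% to 83.0% in KMD1 and 82.4% to 85.6% in JH1, beside 78.9% to 82.7% in KMD2 and 80.0% to 84.5% in CJ03. Whether this bears on the shares of differing loci was not tested, and those shares are no measure of relatedness.

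Differences in degree were seen at loci expressed in both lines. Of 7977 tested loci with at least 10 reads in each of the 6 libraries, 283 (3.55%) were called, 82 of them higher (1.03%) and 201 lower in KMD2. Their changes were smaller, with a median log2 fold change of 1.40 among the higher and -1.32 among the lower loci. XS11 was nearer to CJ03 at 165 of the 283 loci (58.3%), KMD1 nearer to KMD2 at 184 (65.0%) and T202 nearer to CJ03 at 214 (75.6%).

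OS02G0310200, described above, was the most abundant of the 82 higher loci and had the largest change. Besides it, the 6 most abundant loci of this kind in each direction are given here, a choice made after their values were seen. OS07G0160400 was the highest, with 1593, 1609 and 1784 FPKM in KMD2, against 2938, 3988 and 4021 FPKM in CJ03, a log2 fold change of -1.12 ± 0.14 (SE, n = 3 each, limma adjusted p = 0.00245). OS03G0655400 had 1181, 1069 and 1665 FPKM in KMD2, against 3371, 3208 and 3155 FPKM in CJ03, with a log2 fold change of -1.34 ± 0.17 (limma adjusted p = 0.00251). XS11 stood beside CJ03 at OS07G0160400 (3642, 3617 and 3901 FPKM). At OS03G0655400 its mean of 3192 FPKM was also near that of CJ03. The XS11 libraries spread there from 2326 to 4152 FPKM, all above those of KMD2. The decrease at OS01G0823600 was larger, with 451, 597 and 194 FPKM in KMD2 and 1578, 2461 and 1201 FPKM in CJ03, but so was the spread (log2 fold change -2.16 ± 0.43). OS01G0869800, OS12G0169600 and OS08G0162800 were lower by a like amount, with log2 fold changes of -1.08, -1.08 and -1.05, and under plain read totals these were -0.97, -0.96 and -0.93 and not called. OS12G0169600 and OS08G0162800 were each called under 6 of the 16 alternative settings, OS01G0823600 under 12 and OS01G0869800 under 13.

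Among these 6 loci higher in KMD2, OS01G0610050 had the largest change, with 206, 194 and 207 FPKM in KMD2, against 16.9, 17.5 and 11.2 FPKM in CJ03 and a log2 fold change of 3.67 ± 0.20 (SE, n = 3 each, limma adjusted p = 2.23e-05). XS11, KMD1, JH1 and T202 had 2.63 to 25.4 FPKM in their libraries, so KMD2 stood alone above the 5 other GJ lines. OS05G0217800 had 215, 219 and 293 FPKM in KMD2 and 18.4, 25.3 and 42.1 FPKM in CJ03, and OS05G0247100 had 312, 319 and 384 FPKM in KMD2 and 49.1, 63.8 and 101 FPKM in CJ03. At OS05G0247100 XS11 (40.9 to 90.3 FPKM) and KMD1 (37.7 to 92.2 FPKM) were as low as CJ03. JH1 (173 to 413 FPKM) and T202 (137 to 483 FPKM) were higher there. At OS05G0217800 XS11, KMD1 and JH1 (78.9 to 194 FPKM) and T202 (192 to 766 FPKM) were all above CJ03. At OS06G0538900, with 334 ± 58.5 FPKM in KMD2 and 74.6 ± 21.7 FPKM in CJ03 (SD, n = 3 each), CJ03 was the lowest of the GJ lines, since XS11 had 293 to 347 FPKM. OS03G0748300 and OS12G0638300 had log2 fold changes of 1.14 and 1.09, and were called under 10 and 8 of the 16 alternative settings.

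**Figure D4:**
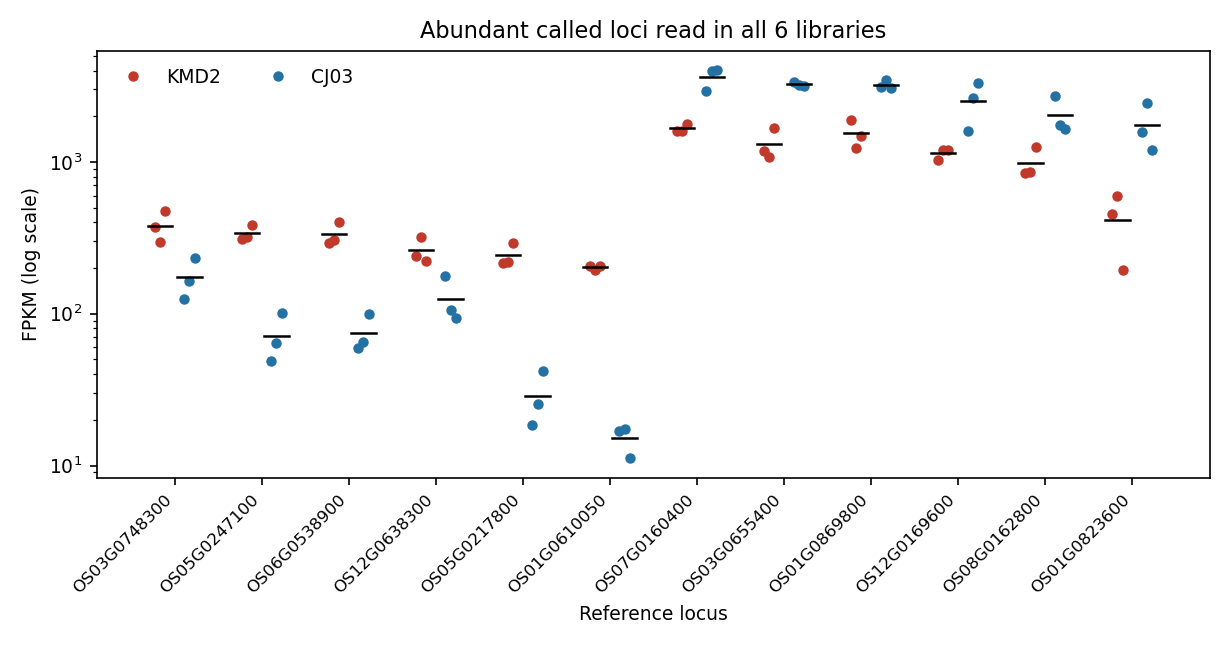
FPKM (log scale) of the 6 most abundant called loci in each direction among those with at least 10 reads in all 6 libraries, leaving out OS02G0310200, which is given above. Points are the 3 libraries of KMD2 (red) and of CJ03 (blue), and bars are line means. The libraries of the 2 lines do not overlap at any of the 12 loci, as at all 716 called loci, beside 29.1% of all tested loci. For called loci this was nearly fixed by the test.

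Called loci were unevenly spread over the chromosomes. On chromosome 12, 78 of 659 tested loci were called (11.8%), and on chromosome 11, 69 of 677 (10.2%), beside 5.98% over all chromosomes and 4.08% to 7.77% on each of the other 10. On chromosome 12 the calls were 27 higher and 51 lower in KMD2, and on chromosome 11 they were 31 higher and 38 lower. Loci read in only 1 of the lines made up 5.16% of the tested loci of chromosome 12 and 3.99% of those of chromosome 11, against at most 2.41% on any other chromosome. These 2 chromosomes had the highest shares of called loci under all 16 alternative settings, although the shares themselves ran from 5.32% to 13.3% for chromosome 11 and from 5.43% to 15.2% for chromosome 12.

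**Figure D5:**
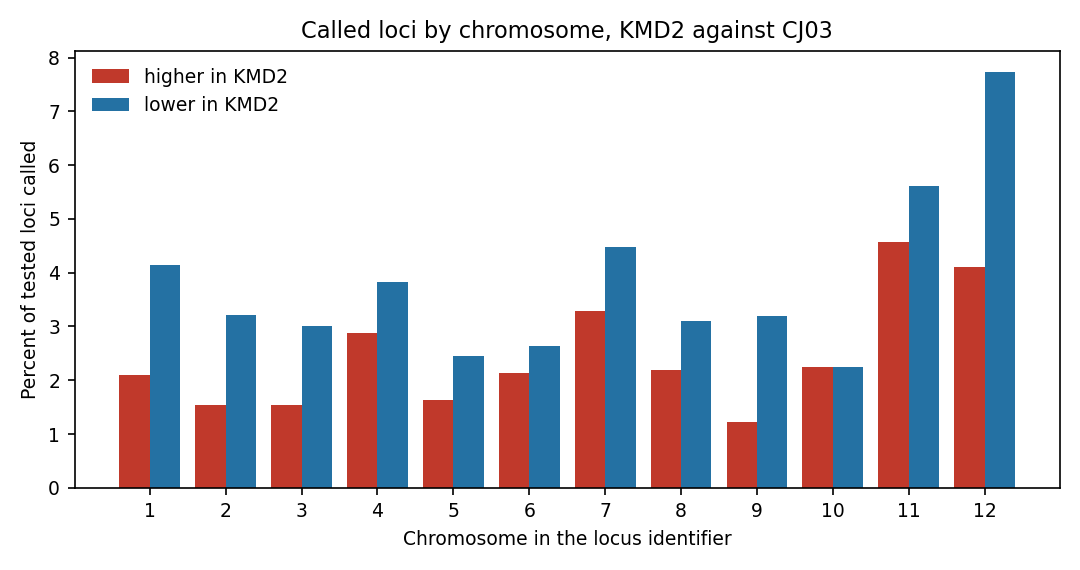
Percent of the tested reference loci of each chromosome that were called, higher in KMD2 (red, left bar) and lower in KMD2 (blue, right bar). Chromosomes 11 and 12 have the highest bars in both directions.

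Windows of 10000 running numbers, a measure chosen after the data were seen because positions in bases were not used, placed the calls more closely. Of 541 windows with at least 10 tested loci, 210 had no call, the median share called was 4.17%, and 11 windows had at least 30% of their loci called. The highest share was on chromosome 12, at numbers 250000 to 259999, where 7 of 11 tested loci were called and all 7 were lower in KMD2. They included OS12G0257450 and, at lower levels, OS12G0250900 (0 in all KMD2 libraries, against 14.6, 9.99 and 7.25 FPKM in CJ03), OS12G0254601 (0 in KMD2, against 9.74, 7.70 and 5.88 FPKM in CJ03) and OS12G0256600 (0 in KMD2, against 9.24, 6.38 and 5.90 FPKM in CJ03). XS11, KMD1 and JH1 had no read at these 4 loci, and T202 had means of 615, 8.26, 2.26 and 3.03 FPKM. At these 4 of the 7 called loci, which were not all direct neighbours, CJ03 and T202 were thus the expressing GJ lines. OS12G0256400, also called, was weak throughout, with means of 1.62 FPKM in CJ03, 0.547 FPKM in T202 and 0.147 FPKM in KMD1.

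On chromosome 11, at numbers 680000 to 689999, 5 of 11 tested loci were called, 2 higher and 3 lower in KMD2. OS11G0684700 had no read in KMD2 and 8.11, 5.02 and 5.67 FPKM in CJ03, and OS11G0685400 likewise had none in KMD2 and 7.21, 5.37 and 5.46 FPKM in CJ03. OS11G0682300 went the other way, with means of 6.22 FPKM in KMD2 and 0.231 FPKM in CJ03. T202 had a mean of 8.09 FPKM at OS11G0684700 but 0 at OS11G0685400, so this pair of the window shared no single pattern across lines.

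The third window lay on chromosome 9, at numbers 270000 to 279999, with 6 of 14 tested loci called, and here the KMD2 libraries were uneven. OS09G0272200 had 4.75, 0 and 0 FPKM in KMD2 and 48.7, 62.0 and 51.0 FPKM in CJ03, OS09G0273950 had 4.55, 0 and 0.201 FPKM in KMD2 and 25.1, 22.5 and 27.1 FPKM in CJ03, and OS09G0276600 had 4.93, 0 and 0 FPKM in KMD2 and 10.5, 18.7 and 27.3 FPKM in CJ03. Replicate 1 of KMD2 gave reads at all 3 loci that its other replicates lacked or nearly lacked. XS11 and KMD1 (means of 25.3 to 37.7 FPKM) and T202 (means of 20.5 to 55.3 FPKM) expressed them, and JH1 was at or near 0. The same library stood out on chromosome 12 at OS12G0628100 (21.6, 0.438 and 0 FPKM in KMD2, against 106, 117 and 142 FPKM in CJ03) and OS12G0628300 (8.66, 0.508 and 0.437 FPKM in KMD2, against 24.2, 18.5 and 21.8 FPKM in CJ03). XS11, KMD1, JH1 and T202 expressed both, with means of 155 to 284 FPKM at OS12G0628100 and 17.1 to 31.4 FPKM at OS12G0628300. By line means, KMD2 was thus the lowest GJ line at both loci.

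Over all reference loci, 61 had at least 10 reads in KMD2 replicate 1 and at most 3 in each of replicates 2 and 3, against 14 and 8 such loci for replicates 2 and 3. In CJ03 the corresponding numbers were 79, 8 and 22, and over the other 12 GJ libraries they ran from 9 to 99, so replicate 1 of KMD2 was not extreme in number. Of its 61 loci, 17 were read in all CJ03 libraries, among them all 4 on chromosome 9, and at these 17 its level had a median of 35.0% of the CJ03 mean.

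Runs of neighbours in which every tested locus was called gave the same picture on a smaller scale. There were 24 runs of at least 3 loci, with 82 of the 716 called loci, the longest of 5 loci, and in 11 of the 24 all loci had the same direction. On chromosome 4, OS04G0370900, OS04G0372201 and OS04G0372400 were all higher in KMD2 and at 0 in all CJ03 libraries. OS04G0372201 had 9.30, 11.5 and 8.48 FPKM in KMD2, a mean of 8.42 FPKM in KMD1 and 0 in XS11, JH1 and T202. On chromosome 7, OS07G0131500 and OS07G0131600 had means of 1.64 and 4.08 FPKM in KMD2 and 0 in CJ03, and in the other GJ lines were read in KMD1 only (2.45 and 3.71 FPKM). Their run of 5 loci was mixed, with 3 higher and 2 lower in KMD2. The lower loci were OS07G0131375 (mean of 0 FPKM in KMD2 and 31.7 FPKM in CJ03) and OS07G0132500 (0.434 and 4.72 FPKM).

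In other runs CJ03 was low together with 1 other line. On chromosome 11, OS11G0237600, OS11G0237700 and OS11G0237900 were all higher in KMD2, with means of 13.7, 70.9 and 3.57 FPKM in KMD2 and 0, 0.145 and 0.0860 FPKM in CJ03. XS11, KMD1 and T202 expressed the 3 loci, and JH1 was low with CJ03 (at most 0.314 FPKM). On chromosome 7, OS07G0543000, OS07G0543300 and OS07G0543800 had means of 5.52, 4.68 and 8.79 FPKM in KMD2 and 0.628, 1.07 and 0 FPKM in CJ03. T202 was low with CJ03 at these loci (0.152, 1.96 and 0 FPKM), and XS11, KMD1 and JH1 had means of 2.44 to 7.95 FPKM. Whether neighbouring loci overlap, so that their reads could be shared, was not known here.

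Outside the reference loci, 614 of 7514 tested predicted genes (8.17%) were called, 303 of them higher in KMD2 (4.03%), as were 108 of 1881 Ensembl Plants identifiers (5.74%), 51 of them higher in KMD2 (2.71%). The expression of cry1Ab itself was not analysed here.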

How the data were processed

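The authors aligned reads to IRGSP-1.0 with HISAT2 2.09, counted them with featureCounts 1.5.0-p3 and deposited FPKM per library; the submitters' processing notes also name DESeq2. Strand use in counting is not given in the sources used here. All 1036152 deposited FPKM values above 0 came out as whole reads within 0.01, up to a common factor, and read totals divided by size factors were equal in all libraries, so the FPKM include a median-of-ratios scaling. These reads served for the variance trend, limits and filters.

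KMD2 was tested against CJ03 with limma 3.58.1 (R 4.3.3) on log2(FPKM + 1), with the variance trend over mean log2 reads, over identifiers that reached 0.5 FPKM in 3 or more of the 6 libraries, two-sided. P-values measure the spread between pools of plants. The fit was also run on simulated reads drawn from the CJ03 means, which differ from the deposited values in their scaling. That run is not used as support here. Counting intervals (exact, 95%) and limits of 3 reads cover counting error only. The named loci are the 10 largest changes in each direction, with a mean of at least 5 FPKM in the higher line and no overlap between lines, and called loci of the 3 windows with the highest share of calls; others were chosen after their values were seen. The members, lists and rules were chosen with earlier results of these data known. Planned gene lists and cell type markers were not used, since the reference table at hand matched 1 of 109715 identifiers. Python 3.11.15 was used for the rest.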

Additional observations from a re-analysis of the deposited data

How the results depend on the processing

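The 716 called reference loci became 447 to 665 when each replicate was left out in turn, and their share higher in KMD2, 38.4%, became 38.9% to 45.7%. That share was 42.8% with a pseudocount of 0.1, 45.8% without a filter on low FPKM, 50.0% with voom on recovered reads and 48.5% with FPKM over plain read totals; the cause was not tested. The count lay between 533 and 993 under the 10 alternatives that kept all 6 libraries. Of 32 named loci, 26 were called under every alternative, none changed direction, and the other 6, all abundant loci, were not called under at least 1. All alternatives reuse these libraries, and the one without a minimum fold change keeps every call by construction.

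The deviations of same-numbered libraries from their line means correlated, over loci, by 0.028, -0.003 and 0.316. Those of differently numbered libraries correlated by -0.318 to 0.302. Same-numbered libraries thus did not stand out as a set, and whether the numbers pair the libraries was not settled. With the replicate block, 749 reference loci were called and 36.2% were higher in KMD2; 648 were among the 716, and OS08G0162800 was not called. With the intron percentage as a covariate 978 were called, 693 of them among the 716. Counts for gene lists were not run, as no list could be matched. At 5118007 to 6361384 recovered reads per library, which could be off by a common factor, loci under about 3 reads per library cannot be told from 0, and 3 pools a line limit what the test finds among loci that differ in degree.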
